A study of Oryza sativa with 6 samples.

Results

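The basic helix-loop-helix (bHLH) genes outside the PIF group were chosen by description: a gene of the expression tables was taken when its description contained "helix-loop-helix" or "bHLH" and its locus was not among 14 loci that the selection rule leaves out, which include the genes similar to PIF3, PIF4, HFR1 and ICE1. This left 47 of 1177 genes, at 46 loci, since Os08g0506700 and Os08g0506850 share LOC_Os08g39630. The samples were leaves of potted rice plants, 3 weeks old, all grown in fluctuating light combined with drought. One group of 3 libraries came from a line that overexpresses a PIF4-GFP fusion, and the other group of 3 libraries is labelled mock and GFP. What promoter drives the fusion, how many independent lines were used and how many plants went into a library are not stated in the labels. A single list of 29513 peaks, with names that begin with PIF4-GFP1, and 1 table of FPKM values per library (reads scaled by the length of the gene model and the size of the library) were used. A search of the descriptions for the words RbcS, ribulose, chlorophyll a and photosystem found 0 genes, so the labelled tissue was not checked against leaf markers.

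PIF4 belongs to the bHLH family itself. In these factors a basic region contacts DNA at the E-box, CANNTG, of which the G-box, CACGTG, is the form best known for the PIFs, and the helix-loop-helix part pairs 2 proteins into a dimer. Small members without a working basic region pair with the others and keep them off DNA. Rice bHLH proteins outside the PIF group act in jasmonate and brassinosteroid responses, iron uptake, pigmentation and pollen development, among others.

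Each peak was matched to its gene through the locus number. A promoter peak is one the authors' list assigns to the start of a gene, and distances are those of the list, from the peak centre to the annotated start, positive downstream. Over the whole list promoter peaks had centres from -18173 to 1999 bp, while exon and intron peaks began at 2001 and 2002 bp. The promoter class therefore also holds peaks that lie inside the gene. The 46 bHLH loci held 44 listed peaks. Promoter peaks numbered 33 (75%), peaks past or at the transcription end 6, exon peaks 3 and intron peaks 2. In the whole list promoter peaks made up 78.9%. A promoter peak was present at 33 of the 47 genes (70.2%, Wilson 95% interval 56 to 81.3%), against 812 of the 1130 other genes of the tables (71.9%, 69.2 to 74.4%). Over all 1177 genes the share was 71.8%, and the bHLH share lay close to that background. With a peak of any class the counts were 35 of 47 bHLH genes (74.5%) and 876 of 1130 others (77.5%), where 77.4% of all genes had one. The peaks come from 1 list with no mock counterpart, so no value of a peak has a replicate error, and intervals cover counting error only.

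A single peak was found at 25 bHLH loci, 2 peaks at 8 loci, 3 peaks at 1 locus and none at 12 loci. The map of peaks around the gene starts shows the bHLH loci in order of the position of their promoter peak.

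**Figure D1:**
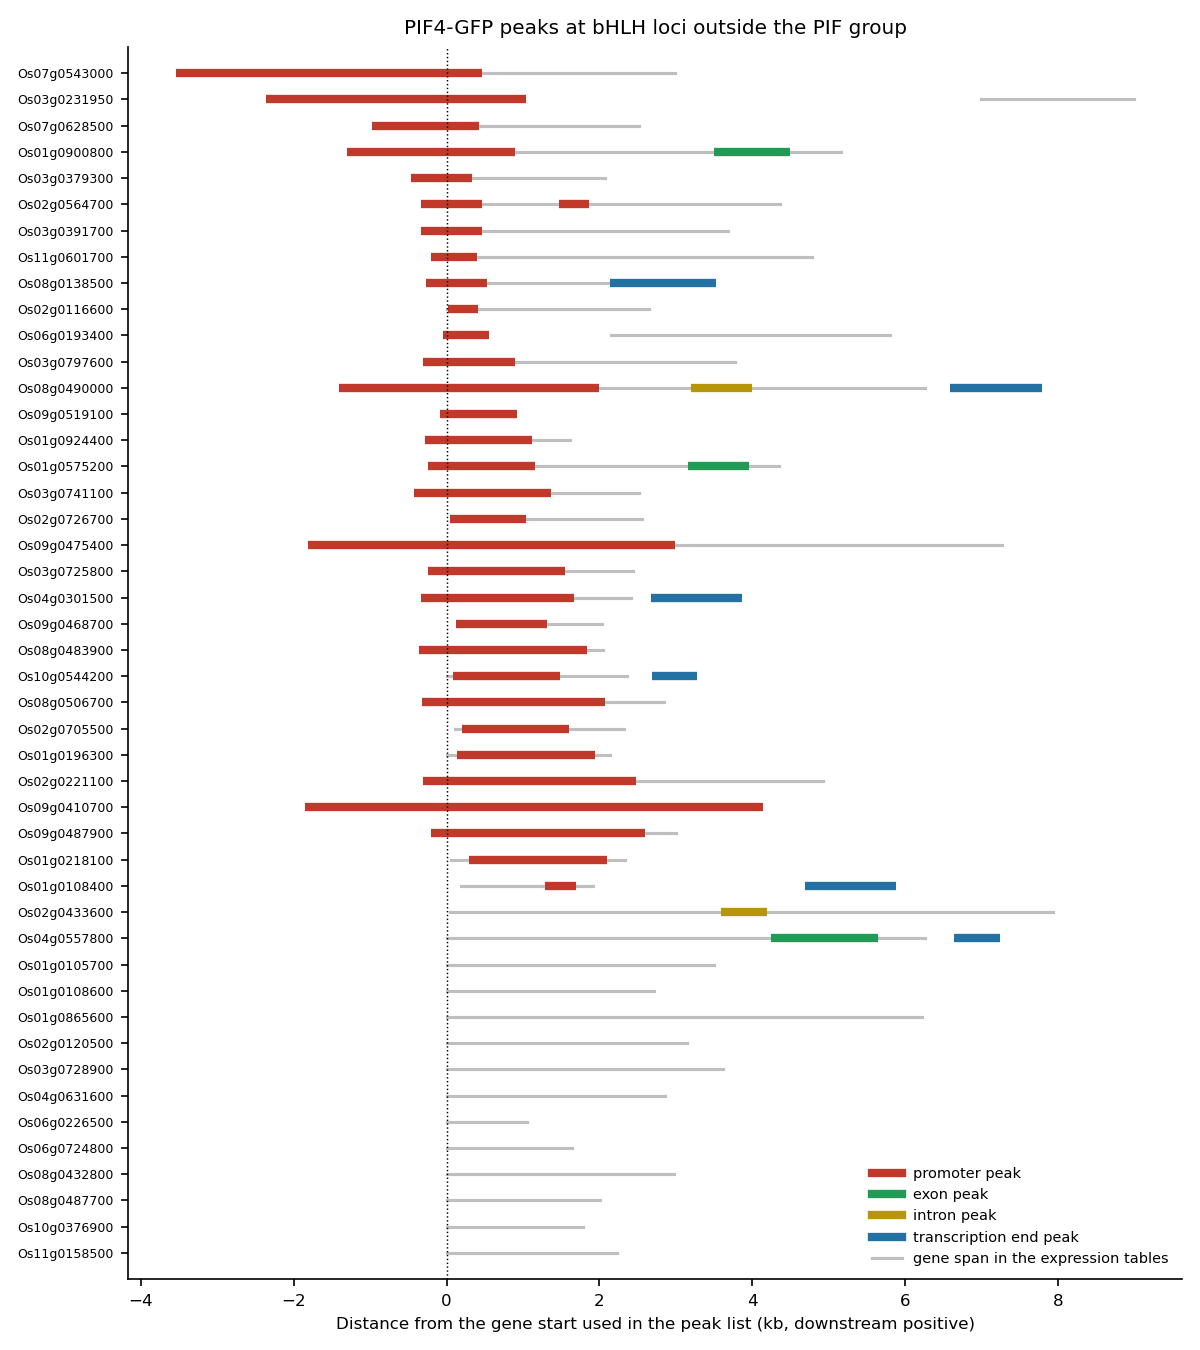
Listed PIF4-GFP peaks (thick bars, coloured by class) at the 46 bHLH loci outside the PIF group, on an axis of distance from the gene start used in the peak list (kb, downstream positive); thin grey lines are the gene spans of the expression tables, and loci without a peak are placed at the start given in those tables. Of the 33 promoter peaks, 24 cover the start, 2 loci hold only peaks in an exon, an intron or at the transcription end, and 12 loci at the bottom hold none.

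The promoter peaks of the bHLH genes had their centres at a median of 469 bp downstream of the start, with quartiles of 132 and 876 bp. In 28 of 33 (84.8%) the centre lay downstream of the start used in the list. The 808 promoter peaks at the other genes of the tables had a median of 336 bp, with 79.1% downstream, and all 23278 promoter peaks of the list had 198 bp, with 69.2% downstream. The start itself lay inside 24 of the 33 bHLH promoter peaks (72.7%), 84.2% of those at the other genes of the tables and 87.2% of all. The other 9 bHLH promoter peaks began past the start. These differences were not tested, since the peaks come from 1 list. The median width was 1400 bp for the bHLH promoter peaks (quartiles 800 and 2200 bp), 1600 bp at the other genes of the tables and 1400 bp over the list.

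**Figure D2:**
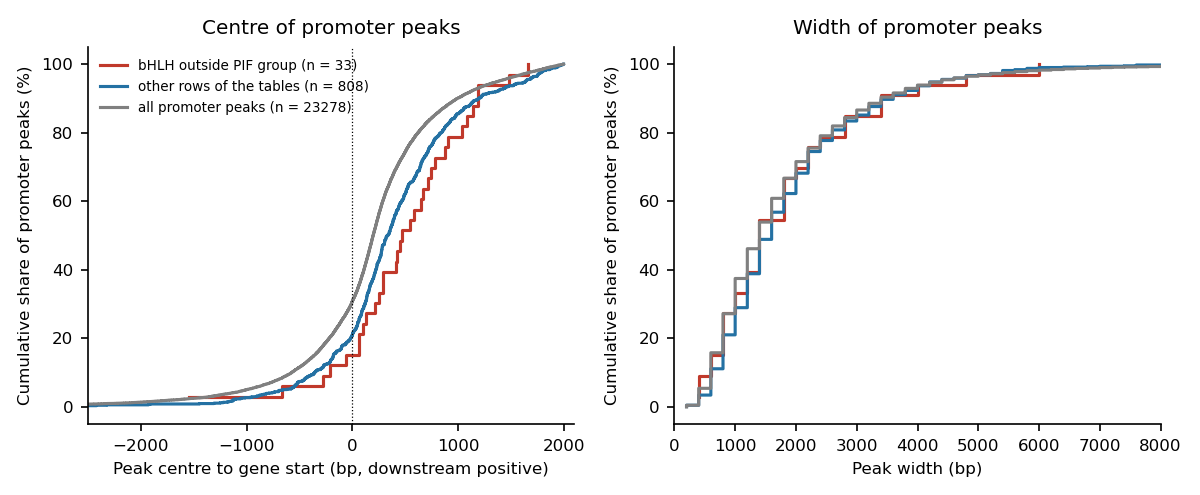
Cumulative share of promoter peaks (%) by distance of the peak centre from the gene start (left, bp, downstream positive) and by peak width (right, bp), for the 33 peaks at bHLH genes outside the PIF group, the 808 at other genes of the tables and all 23278 in the list. The bHLH curve runs to the right of the others in distance (median 469 bp against 336 and 198 bp), while the median widths are 1400, 1600 and 1400 bp.

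The widest peak at a bHLH gene was that at the promoter of Os09g0410700, which extended over 6000 bp (chromosome 9, 14582200 to 14588199). That gene spans 2744 bp in the tables, from 14583538 to 14586281 on the minus strand, so the peak covers it whole. On the same chromosome the promoter peak of Os09g0475400 measured 4800 bp (18205800 to 18210599) and reached from before the start into the gene. All 5 bHLH loci on chromosome 9 had a promoter peak, where 71.8% of all 1177 genes had one. The same held for the 2 bHLH loci on chromosome 7, while on chromosomes 4 and 6 it held for 1 of 3 each. These are the extremes among chromosomes with 2 to 9 bHLH loci each, too few to read a pattern from. On chromosome 7 the promoter peak of Os07g0543000, a gene similar to a helix-loop-helix-like protein fragment, was 4000 bp wide (21469400 to 21473399). Its centre lay at -1542 bp, the farthest upstream among the bHLH genes by the starts of the list.

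Upstream centres were few by the starts of the list. After Os07g0543000 came Os03g0231950, whose promoter peak of 3400 bp (chromosome 3, 6988600 to 6991999) was centred at -663 bp. Here the list and the tables place the gene differently: the start in the list lies at -6991 bp from the one in the tables, and the peak does not touch the gene's span there, from 6980640 to 6982645. The peak at Os07g0628500 measured 1400 bp (chromosome 7, 26041800 to 26043199) and was centred at -273 bp. In all, 37 of the 44 bHLH peaks had starts within 500 bp of each other in the list and the tables, and 7 did not. For the promoter peaks of Os06g0193400, Os09g0475400, Os08g0490000 and Os02g0726700 the list start lay at -2157, -1824, -1077 and -622 bp from that in the tables. Their centres were 253, 586, 293 and 544 bp downstream by the list, but fall upstream of the starts in the tables. The order of upstream centres and the share downstream therefore depend on the starts used.

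Narrow promoter peaks inside the gene formed the other end of the range. Os02g0564700, similar to a bHLH transcription factor, was the one locus with 2 promoter peaks: one of 800 bp at its start on chromosome 2, from 21440200 to 21440999, and one of 400 bp from 21438800 to 21439199, centred 1665 bp downstream. Os01g0108400 had a 400 bp promoter peak (chromosome 1, 456800 to 457199) centred 1487 bp downstream, and a second peak past its end, from 460200 to 461399. Os01g0108600, the next bHLH gene of the set on chromosome 1, from 478384 to 481099, had none assigned. A promoter peak of LOC_Os01g01880, 4200 bp wide, lay 701 bp past its end. Os02g0116600 had the third peak of 400 bp, from 878200 to 878599 on chromosome 2, centred 216 bp downstream. Widths in the list are steps of 200 bp (1 of 29513 peaks is not), so these peaks are 2 steps wide.

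Several bHLH loci carried a second peak deeper in the gene, at its transcription end or past it. Os08g0490000 on chromosome 8 held 3 peaks. Its promoter peak of 3400 bp ran from 24221000 to 24224399. A peak of 800 bp lay in intron 4 of 10, from 24225600 to 24226399. A peak of 1200 bp lay past the end of its span, from 24229000 to 24230199. For the promoter and intron peaks the list placed the gene start at -1077 bp from that in the tables. For the peak past the end the list used another start, at 2590 bp. Exon peaks accompanied promoter peaks at Os01g0575200 (exon 3 of 4, chromosome 1, 22141200 to 22141999) and at Os01g0900800 (exon 2 of 6, chromosome 1, 39214800 to 39215799). Peaks at the transcription end accompanied promoter peaks at Os04g0301500, Os08g0138500 and Os10g0544200 as well as Os01g0108400 and Os08g0490000. The gene Os02g0433600 had no promoter peak and a single peak of 600 bp in intron 2 of 4, on chromosome 2 from 13762800 to 13763399.

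Among genes with a known role, bHLH members of hormone and nutrient pathways differed in whether a peak was listed. Os03g0741100 is listed by RefSeq as bHLH148, a rice factor of the jasmonate and drought responses. Its promoter peak of 1800 bp (chromosome 3, 30406400 to 30408199) was centred 469 bp downstream of the start. Os10g0544200 carries the synonym AtbHLH004, the Arabidopsis family number of the jasmonate-response factor MYC4. Peaks lay at its promoter, 1400 bp wide (chromosome 10, 21245600 to 21246999), and at its end, 600 bp wide (21243800 to 21244399). Os03g0379300 is listed with the synonyms bHLH063, IRO3 and OsIRO2, names of rice regulators of the iron-deficiency response. Its promoter peak of 800 bp (chromosome 3, 14999600 to 15000399) was centred at -63 bp, almost on the start. The gene similar to an auxin-induced bHLH factor, Os01g0924400, carried one of 1400 bp at its promoter (chromosome 1, 40477200 to 40478599).

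No promoter peak was listed at the members named for roles in brassinosteroid signalling, pollen and pigment, where 71.8% of all 1177 genes had one. So few genes carry each role that no difference between roles can be read from this. Os06g0226500 is BU1, a small helix-loop-helix protein that promotes brassinosteroid responses in rice and with them the bending of the leaf joint. It spans 1052 bp on chromosome 6, from 6556697 to 6557748, and the nearest listed peak began 5052 bp away, at the promoter of LOC_Os06g12220. Os02g0120500 is TDR, which is needed for the breakdown of the tapetum, the tissue that feeds developing pollen. No peak was assigned to TDR, but a 3800 bp promoter peak assigned to LOC_Os02g02810 (chromosome 2, 1071800 to 1075599) overlapped its 3′ part (the gene runs on the minus strand from 1073625 to 1076776). Os04g0557800 is similar to R-type bHLH proteins, known from maize as switches of anthocyanin pigment. Its peaks lay in exon 9 of 11, 1400 bp wide (chromosome 4, 27950000 to 27951399), and past its end, 600 bp wide (27948400 to 27948999). Os08g0432800, similar to Ivory seed, a pigment regulator of morning glory, had none, and the nearest listed peak lay 19346 bp away.

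The 12 genes without a peak of any class differed in what lay around them. At 2 of them, TDR and Os06g0724800, a peak assigned to a neighbour overlapped the gene. At 4 others, Os01g0865600, Os01g0105700, Os01g0108600 and Os11g0158500, a neighbour's peak lay within 2000 bp. For Os01g0865600 it was the promoter peak of LOC_Os01g64570, 449 bp past the gene's end. At the remaining 6, Os03g0728900, Os04g0631600, BU1, the Ivory seed-like gene, Os08g0487700 and Os10g0376900, no listed peak lay within 2000 bp. The list holds gene-linked peaks only, so a peak left out of the list would not be seen.

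Promoter peaks were unevenly spread over the wordings that the annotation uses for these genes. Of the 27 genes described as containing a helix-loop-helix DNA-binding domain, 23 had a promoter peak (85.2%, 67.5 to 94.1%). Of the 9 described as containing a bHLH dimerisation region, 3 did (33.3%, 12.1 to 64.6%): Os07g0628500, bHLH148 and Os10g0544200. Of the 11 with other descriptions, 7 did (63.6%, 35.4 to 84.8%). The intervals of the first and second wordings do not overlap, but with promoter peaks of at least 1000 bp they do, at 66.7% (47.8 to 81.4%) and 33.3% (12.1 to 64.6%). The split was chosen after the values were seen and was not tested. Both wordings describe the same family, and what else separates the genes that carry them was not tested. Among transcription factor families of similar kind, 30 of 38 bZIP genes (78.9%), 55 of 72 WRKY genes (76.4%) and 53 of 76 MYB genes (69.7%) had a promoter peak, and 5 of the 8 bHLH genes left out (62.5%, 30.6 to 86.3%). The interval of the bHLH genes outside the PIF group held all of these shares.

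**Figure D3:**
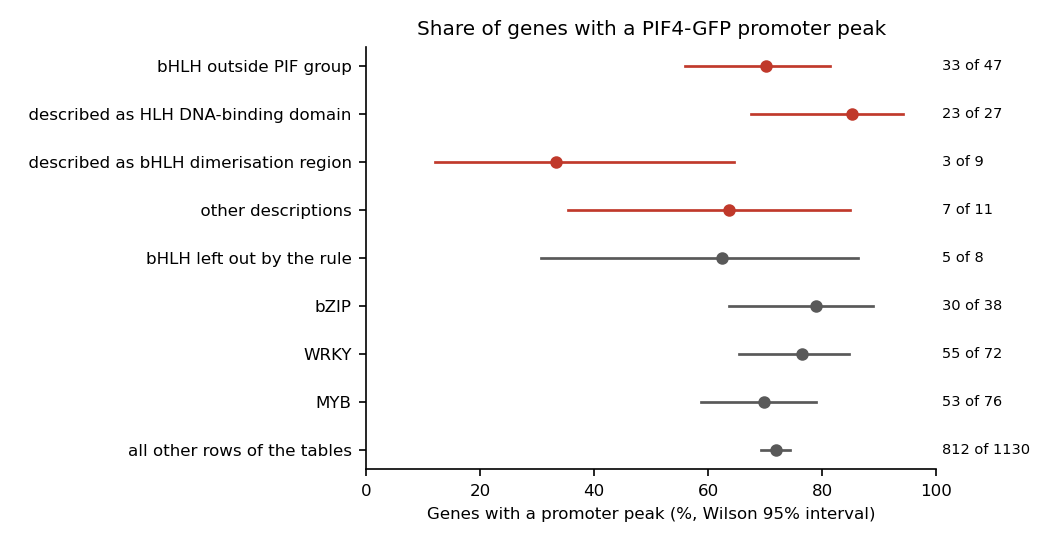
Share of genes with a PIF4-GFP promoter peak (%, points) with Wilson 95% intervals (lines) for the bHLH genes outside the PIF group and their 3 kinds of description (red) and for other families and the other rows of the tables (grey), with counts at the right. The family as a whole (33 of 47) lies near the other rows (812 of 1130), with its 2 main wordings on either side (23 of 27 and 3 of 9).

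Partners of bHLH factors were taken from the tables by description. The words tify, ZIM or jasmonate, which mark the JAZ repressors that bind MYC-type bHLH proteins, matched 1 gene. It was a NAC-domain regulator of jasmonate signalling, Os03g0119966, and not a JAZ repressor, and it had a peak of 7000 bp at its transcription end and no promoter peak. The words BES1 or BZR1, which name brassinosteroid factors that work with bHLH proteins, matched Os01g0203000, Os06g0552300 and Os07g0580500. Of these, 0 of 3 had a peak of any class, where 77.4% of all 1177 genes had one. With 3 genes this says little about such partners, and it was not tested.

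Transcript levels were compared between the groups with the FPKM tables, and no bHLH row passed the test. The names on the rows need care first. The FPKM values could be turned back into whole reads, with 1 length for each row and 1 total for each library. The totals ran between 16247094 and 17919095 reads in PIF4-GFP and between 14933740 and 15324492 in GFP mock. A length could be recovered for 32 of the 47 bHLH rows, and all 32 were multiples of 3. Among library totals that fitted equally, those giving more lengths divisible by 3 were kept, so this divisibility is partly built in. FPKM values fix only the product of length and total, so the lengths and how they compare with spans depend on the totals kept. In 7 of the 32 (21.9%) this length exceeded the whole span of the gene named on the row, introns included, against 191 of 917 rows (20.8%) in the tables. Across the 32 rows Spearman's rho between length and span was 0.048, and across the 917 rows it was 0.024, as a description. The row labelled Os10g0376900 was scaled by 4047 nucleotides, while the gene spans 1791 bp, and that labelled BU1 by 1827 nucleotides for a gene of 1052 bp. The values below therefore belong to rows that carry these names, and they cannot be taken as levels of the named transcripts.

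**Figure D4:**
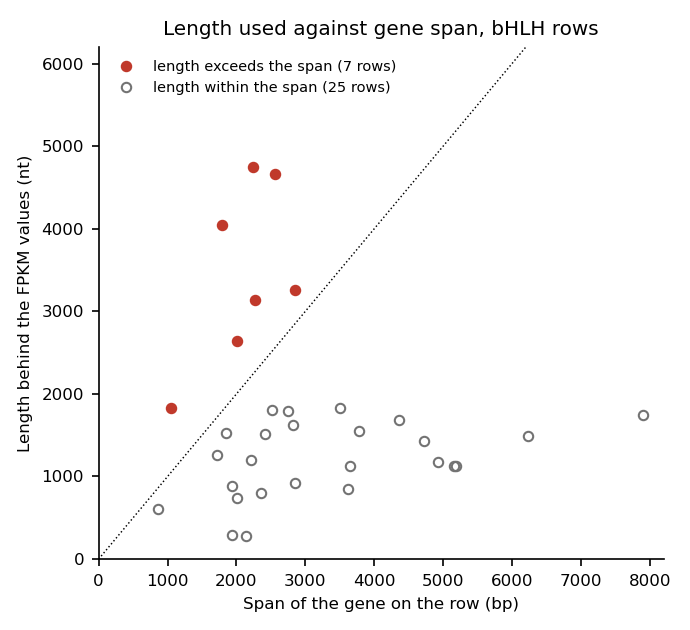
Length behind the FPKM values (nucleotides, vertical axis) against the span of the gene named on the row (bp, horizontal axis) for the 32 bHLH rows with a recovered length; the dotted line marks equal values. In 7 rows (filled) the length is longer than the gene, up to 4752 nucleotides for a gene of 2236 bp.

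The same holds for the row labelled as similar to PIF4, Os09g0510500. The labels do not say which locus the fusion was made from. The row had 7.46, 6.86 and 7.85 FPKM in the PIF4-GFP libraries, against 8.02, 8 and 8 FPKM in the GFP mock libraries. All 3 PIF4-GFP values lay below the mock values, but the row's length of 2880 nucleotides exceeds the gene's span of 2382 bp, so the row is no check of the line.

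Of the 47 bHLH rows, 13 were at 0 in all 6 libraries, 5 were above 0 but did not reach 1 FPKM in 3 libraries, and 29 were tested. Among the 29, 9 rows averaged below 10 FPKM, 16 between 10 and 100, and 4 at 100 or more. The highest row, labelled Os02g0433600, had 430, 425 and 506 FPKM in PIF4-GFP, against 495, 464 and 500 FPKM in GFP mock. It was followed by the row labelled Os10g0544200, with 226, 214 and 247 FPKM in PIF4-GFP and 246, 228 and 248 FPKM in GFP mock. In both rows the groups overlapped, and PIF4-GFP replicate 3 was the highest library of its group. A promoter peak was listed at 8 of the 13 genes whose rows were at 0 and at 25 of the 34 others, where 71.8% of all 1177 genes had one. This split was not made over all genes. As the rows cannot be taken as levels of the named transcripts, it gives no link between level and peak.

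**Figure D5:**
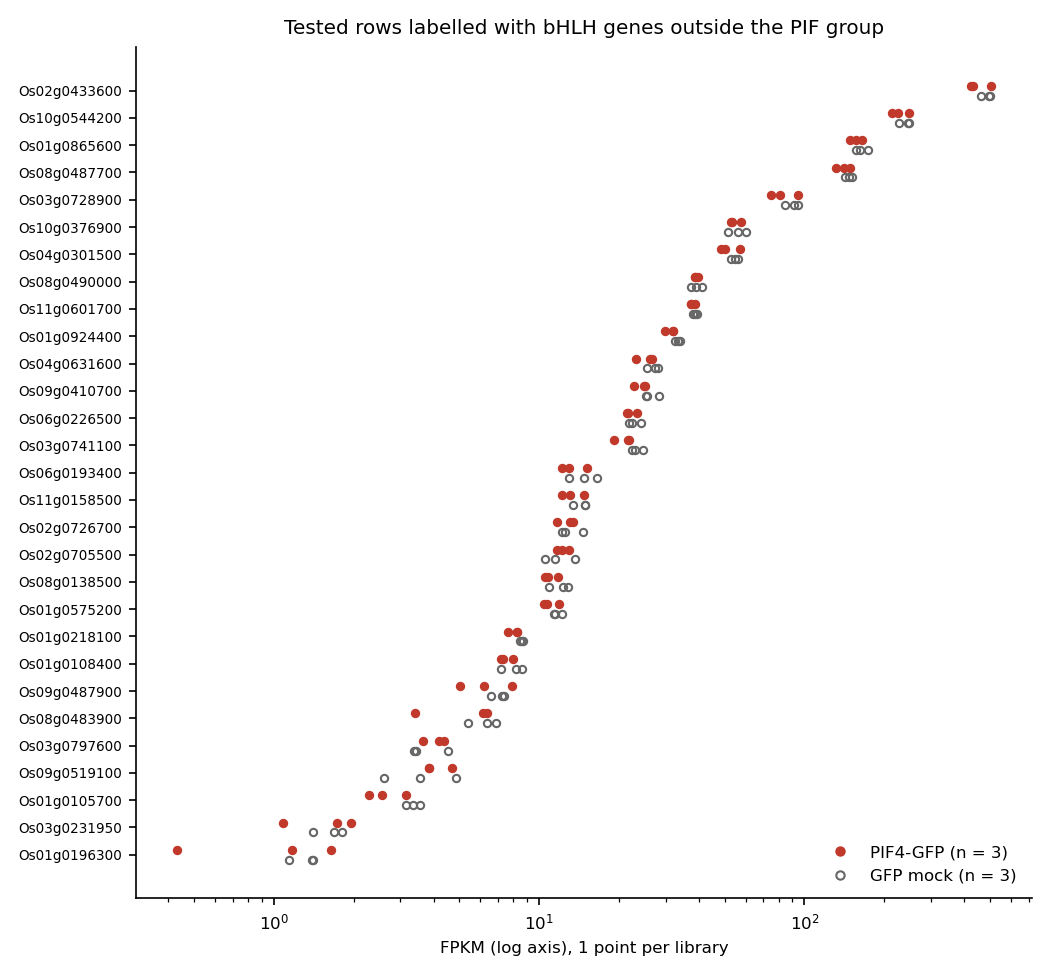
FPKM (log axis) of the 29 tested rows labelled with bHLH genes outside the PIF group, 1 point per library, PIF4-GFP filled red above and GFP mock open grey below, rows ordered by mean level. Values run from 0.432 to 506 FPKM, and the groups do not overlap in 5 of 29 rows (7.91% of all 847 rows were lower in this way and 1.18% higher), or in 0 of 29 after the libraries are centred on their medians.

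With limma on log2(FPKM + 1), 0 of the 29 bHLH rows passed an adjusted p of 0.05, and the share over all 847 rows tested was 0%. At an unadjusted p under 0.05 limma counted 0 bHLH rows, where the share over all rows was 3.90%. The smallest adjusted p among the bHLH rows was 0.895. PIF4-GFP had the lower mean in 26 of the 29 rows and the higher mean in 3, where 79.5% of all 847 rows were lower. The median log2 difference was -0.085 in the bHLH rows and -0.063 over all rows. With every library shifted to the same median log2 level, 16 bHLH rows were lower and 13 higher, with a median of -0.006. Over all rows 362 (42.7%) were then lower and 485 higher, with a median of 0.016. The groups did not overlap in 5 of the 29 bHLH rows, all lower in PIF4-GFP, where 7.91% of all rows were lower in this way and 1.18% higher. After centring this held for 0 of 29 bHLH rows, where 3.19% of all rows were lower and 6.26% higher. The libraries PIF4-GFP 1 and PIF4-GFP 2 were each the lowest of the 6 in 11 of the 29 rows, and GFP mock 3 was the highest in 16. The labels do not state that replicates were separate plants, and p-values then cover only a spread that could be technical. In whole leaves, fewer cells of a type and less RNA per cell cannot be told apart.

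The lowest difference belonged to the row labelled Os01g0105700. It had 3.16, 2.56 and 2.29 FPKM in PIF4-GFP, against 3.35, 3.16 and 3.54 FPKM in GFP mock, from 72 to 97 reads. The groups touch at 3.16 FPKM to the digits printed. The mean was lower in PIF4-GFP by a log2 difference of -0.25, with an SE of 0.14 and an adjusted p of 0.895 by limma. An exact permutation test gave p = 0.1, which is the lowest value 3 libraries against 3 can reach. The row labelled bHLH148 (Os03g0741100) had 19.2, 21.7 and 21.9 FPKM in PIF4-GFP, against 22.3, 22.9 and 24.6 FPKM in GFP mock. All 3 PIF4-GFP values lay below the mock values, and the log2 difference was -0.15 with an SE of 0.090 (adjusted p by limma 0.895). The other rows without overlap were those labelled Os09g0410700, Os01g0924400 and Os01g0218100, with log2 differences of -0.12, -0.091 and -0.087.

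The row labelled BU1 (Os06g0226500) had 21.7, 21.5 and 23.3 FPKM in PIF4-GFP, against 24.1, 21.9 and 22.3 FPKM in GFP mock, and the groups overlapped (log2 difference -0.037, SE 0.086). The rows labelled TDR, IRO3, the R-type gene and the Ivory seed-like gene were at 0 in all libraries.

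The highest difference was that of the row labelled Os09g0519100, with 3.86, 4.70 and 3.86 FPKM in PIF4-GFP, against 3.55, 2.61 and 4.86 FPKM in GFP mock. The groups overlapped, the row rested on 24 to 51 reads, and the log2 difference of 0.16 (SE 0.17) became -0.012 without GFP mock replicate 2. Rows labelled Os03g0797600 and Os02g0705500 followed with 0.094 and 0.050, and that of Os02g0705500 became -0.027 without the same library. The row labelled Os01g0196300 had 0.432, 1.17 and 1.64 FPKM in PIF4-GFP, against 1.14, 1.39 and 1.41 FPKM in GFP mock, from 2 to 8 reads, and its log2 difference of -0.195 became 0.053 without PIF4-GFP replicate 1. The row labelled Os08g0483900 had 6.35, 6.14 and 3.41 FPKM in PIF4-GFP, against 5.38, 6.34 and 6.90 FPKM in GFP mock, and its log2 difference of -0.23 became 0.012 without PIF4-GFP replicate 3.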

How the data were processed

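Samples were grouped by their titles. FPKM values were used as deposited, with the unit read from the values. Per the submitters' processing notes, Bowtie 0.12.2, HISAT2 2.0, StringTie 1.3.0 and the mouse build mm8 were recorded, without roles; the rice build, peak caller, threshold and pooling were not stated there. The deposited peak list gives positions, classes and distances, and no score; coordinates are as listed. Version suffixes of locus numbers were stripped before joining. Lengths and totals were recovered from FPKM in rows above 0 in 4 or more samples, within 0.0001 of a whole read. Totals were chosen by the most rows fitted, then the most lengths divisible by 3, then the shortest median length. The groups were compared by limma 3.58.1 in R 4.3.3, using its trend option, on log2 values of FPKM plus 1. A row entered if 3 or more samples reached 1 FPKM, and p-values were two-sided and adjusted over all rows by Benjamini and Hochberg. The step was tested on simulated data. The 1 FPKM added before the log2 step understates changes of low rows. Peaks, counts and figures used Python 3.11.15. All 47 genes matched the RefSeq table ASM3414082v1, used for names only, and 6 had synonyms. Members, lists and wordings were chosen with earlier results of these data known. Genes named have a known role, lead or close the ranking of differences (5 each) or of p (4), have the widest or outermost peaks or several peaks, or have none. Motifs were not counted, as no genome sequence was used here.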

Additional observations from a re-analysis of the deposited data

How the results depend on the processing

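The count of 0 bHLH rows called by limma held under a pseudocount of 0.1, no filter on low values (34 rows), median-centred libraries, no mean-variance trend, the replicate block and without each library in turn. Replicate numbers were not taken to pair the samples: correlations of their deviations were 0.111, 0.156 and -0.088, and 2 of 3 PIF4-GFP samples correlated best with the mock sample of their own number. With the replicate block the median log2 difference was -0.085, as without it, which the complete layout of replicates fixes in advance. Without single libraries that median ran from -0.123 to -0.049. Of 132 values of 12 named rows under these alternatives, 124 kept their direction and 8 changed it. No filter, no mean-variance trend and the replicate block cannot change a row's difference, so their values kept direction by construction. All 8 changes came with centred libraries or without single libraries. The cause was not tested beyond the samples left out. With centred libraries Os08g0490000 had 0.071 and Os11g0601700 0.047. Without single libraries the values that changed sign were 0.053 for Os01g0196300, 0.012 for Os08g0483900, -0.027 for Os02g0705500, -0.012 for Os09g0519100, and 0.000 and 0.025 for Os08g0490000 (leave-one-out ranges -0.389 to 0.053, -0.355 to 0.012, -0.027 to 0.144, -0.012 to 0.338 and -0.040 to 0.025). The count of 33 genes with a promoter peak was 35 with any class, 32 within 2000 bp of the start in the tables, 25 with peaks of at least 1000 bp, and 32 of 46 per locus.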
